A study of Monodelphis domestica and Mus musculus with 2 samples.

Results

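The vesicular glutamate transporters and the SV2 proteins of synaptic vesicles were examined here as 6 genes, Slc17a6, Slc17a7, Slc17a8, Sv2a, Sv2b and Sv2c, in Stereo-seq sections of opossum and mouse brain. Members were found by gene symbol with case ignored. The opossum table of 30613 features held 4 of the 6, namely SLC17A6 (ENSMODG00000009304), SV2A (ENSMODG00000018766), SV2B (ENSMODG00000013309) and SV2C (ENSMODG00000003099). No opossum feature carried the symbol SLC17A7 or SLC17A8, so these transporters were not analysed in that species. The mouse table of 61317 features held all 6.

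A vesicular glutamate transporter pumps glutamate from the cytosol into the synaptic vesicle, driven by the proton gradient that a vacuolar ATPase sets up, and so gives a neuron the means to release glutamate. In the rodent forebrain Slc17a7 (VGLUT1) is known as the transporter of most cortical and hippocampal excitatory neurons, Slc17a6 (VGLUT2) as that of thalamic, midbrain and brainstem neurons, and Slc17a8 (VGLUT3) as that of scattered cells that often use another transmitter too. The SV2 proteins are glycosylated membrane proteins of synaptic vesicles that interact with the calcium sensor synaptotagmin. SV2A is found at nearly all synapses and is the binding site of the antiseizure drug levetiracetam, whereas SV2B and SV2C are more restricted, SV2C in the adult rodent mostly to basal ganglia and other subcortical neurons.

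The study compared the cell types of primary visual cortex (V1) between a marsupial, the gray short-tailed opossum Monodelphis domestica, and the laboratory mouse. Stereo-seq captures messenger RNA from a frozen section on a chip of barcoded spots, and the spots were assigned to segmented cells. The opossum was 1 adult male of 6 months and the mouse was 1 male at postnatal day 40, a wild-type C57BL/6J animal. Each gave 1 section of 10 µm through coronal cortical slices embedded side by side, and neither was treated. RNA integrity was 7.1 in the opossum and higher in the mouse. With 1 animal a species there is no test between species, and the spread between V1 regions is a spread within 1 section.

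After filtering, the opossum section held 4806 cells in 3 V1 regions and 74531 cells outside V1, and the mouse section held 9127 cells in 4 regions and 110881 outside. The median cell of V1 had 1326 UMIs (unique molecular identifiers, counted molecules) in the opossum and 1305 in the mouse. Outside V1 the medians were 850 and 1120. Opossum region 3 lay in another slice than regions 1 and 2 and had the lowest regional median, 1048. Levels are UMIs of a gene per 10000 UMIs, summed over cells, with exact Poisson 95% intervals that cover counting error only. The cortical glutamatergic markers (Neurod2, Neurod6, Tbr1, Nrgn and Camk2a, of which 4 were found in the opossum) summed to 53.1 in opossum V1 and 31.7 in mouse V1. Outside V1 they summed to 19.7 in the opossum, against 28.7 in the mouse, so that much of the opossum tissue outside V1 carried little of the cortical list. No barcode was shared by the 2 sections.

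In GRCm39 the mouse members are protein-coding genes on 4 chromosomes. Slc17a6 lies at chr7:51271434-51320867 and Slc17a7 at chr7:44813305-44825644, both on the plus strand. Slc17a8 lies at chr10:89409882-89457326 on the minus strand. Sv2a lies at chr3:96088467-96106005 on the plus strand, Sv2b at chr7:74761975-74959131 on the minus strand and Sv2c at chr13:96091102-96269085 on the minus strand. Some of these spans overlap other genes. Sv2c, with 3041 UMIs in the section, shares its strand with Btf3l4b and Gm23955, which together had 208, and Sv2a, with 27226, lies opposite Bola1, which had 2678. Use of strand in the counting is not given in the sources used here, so reads of overlapping genes cannot be told apart.

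SLC17A6 was measured throughout opossum V1, at 1.46 UMIs per 10000 (95% interval 1.37 to 1.55, 1013 UMIs), and its level was 1.43, 1.59 and 1.27 in regions 1, 2 and 3. In mouse V1 the same transporter stood at 0.232 (0.206 to 0.261, 291 UMIs), with 0.218, 0.301, 0.214 and 0.222 in regions 1 to 4. The difference in level between the species has no test, since each is 1 animal counted against its own gene models, the opossum ones with extended 3′ ends. The share of all genes that differ as much is not given here.

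Slc17a7 was the well-measured transporter of mouse V1, at 10.5 (10.3 to 10.7, 13113 UMIs) and at 10.4, 9.34, 10.5 and 11.4 in regions 1 to 4. Slc17a8 was close to absent there, with 33 UMIs among 9127 cells and a level of 0.0264 (0.0181 to 0.0370). Of those UMIs 5 fell on the 60 cells labelled L5NP, the near-projecting neurons of layer 5, a level of 0.623. Its interval, 0.202 to 1.45, lay above that of L5IT, which reached 0.173, and those of L5PT and L6CT. It overlapped those of L6b, of Sst, Vip and Lamp5 interneurons and of oligodendrocyte precursors, each with 0 or 1 UMI. The 5 UMIs of L5NP sat in 3.33% of the 60 cells (exact binomial 95% interval 0.406 to 11.5%), and none were in regions 2 and 3. The interval of the level takes UMIs as independent and does not cover their sitting in so few cells.

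Among the SV2 genes, SV2A stood at 3.21 in opossum V1 (3.08 to 3.35) and Sv2a at 1.98 in mouse V1 (1.90 to 2.06). SV2B stood at 2.46 in the opossum (2.35 to 2.58), with 2.87, 2.15 and 2.31 in its regions, and Sv2b at 4.23 in the mouse (4.11 to 4.34), with 4.35, 3.97, 4.31 and 4.12. SV2A thus read higher in the opossum and SV2B lower, again with no test between 2 animals counted against different gene models. The share of all genes that differ as much is not given here. SV2C was low in V1 of both, at 0.0606 in the opossum (42 UMIs) and 0.159 in the mouse (199 UMIs).

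Within V1 the opossum genes differed in how they lay across depth. SV2B had a trough at middle depth. Depth was scaled from 0 at the upper edge of a region to 1 at its lower edge and split into 10 bins, and SV2B stood at 3.07 and 2.96 in the top 2 bins, at 0.786 and 0.774 in bins 5 and 6, and at 3.34, 3.15 and 3.47 in the bottom 3. Each of the 3 regions showed the trough. Their levels in bin 5 were 0.644, 0.724 and 1.10, and in bin 1 they were 3.56, 2.92 and 2.50. Region 1 still had a high level, 4.18, in bin 4, whereas regions 2 and 3 were already at 0.844 and 1.10 there, so the upper edge of the trough differed between regions.

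SLC17A6 ran high in the trough of SV2B and also above it, in bins 3 and 4, where pooled SV2B was still at 2.37. The level of SLC17A6 was 1.13 and 1.21 in the top 2 bins, then 1.97, 2.18, 1.89 and 1.98 in bins 3 to 6, and between 0.942 and 1.34 in the bottom 4. The 3 regions had 2.01, 2.32 and 2.30 in bin 4 and 1.17, 0.952 and 0.394 in bin 10. SV2A had a shallower maximum in the same place, 4.06 in bin 5 against 2.56 in bin 1 and 3.00 in bin 10. Weighted by level, the mean depth of SLC17A6 was 0.469 ± 0.00944 (SD over 3 regions), against 0.493 for all cells, whereas the mean of SV2B, 0.511 ± 0.0402, does not show its trough. SV2C was at 0.119 or less in every bin, on too few UMIs to give a profile.

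**Figure D1:**
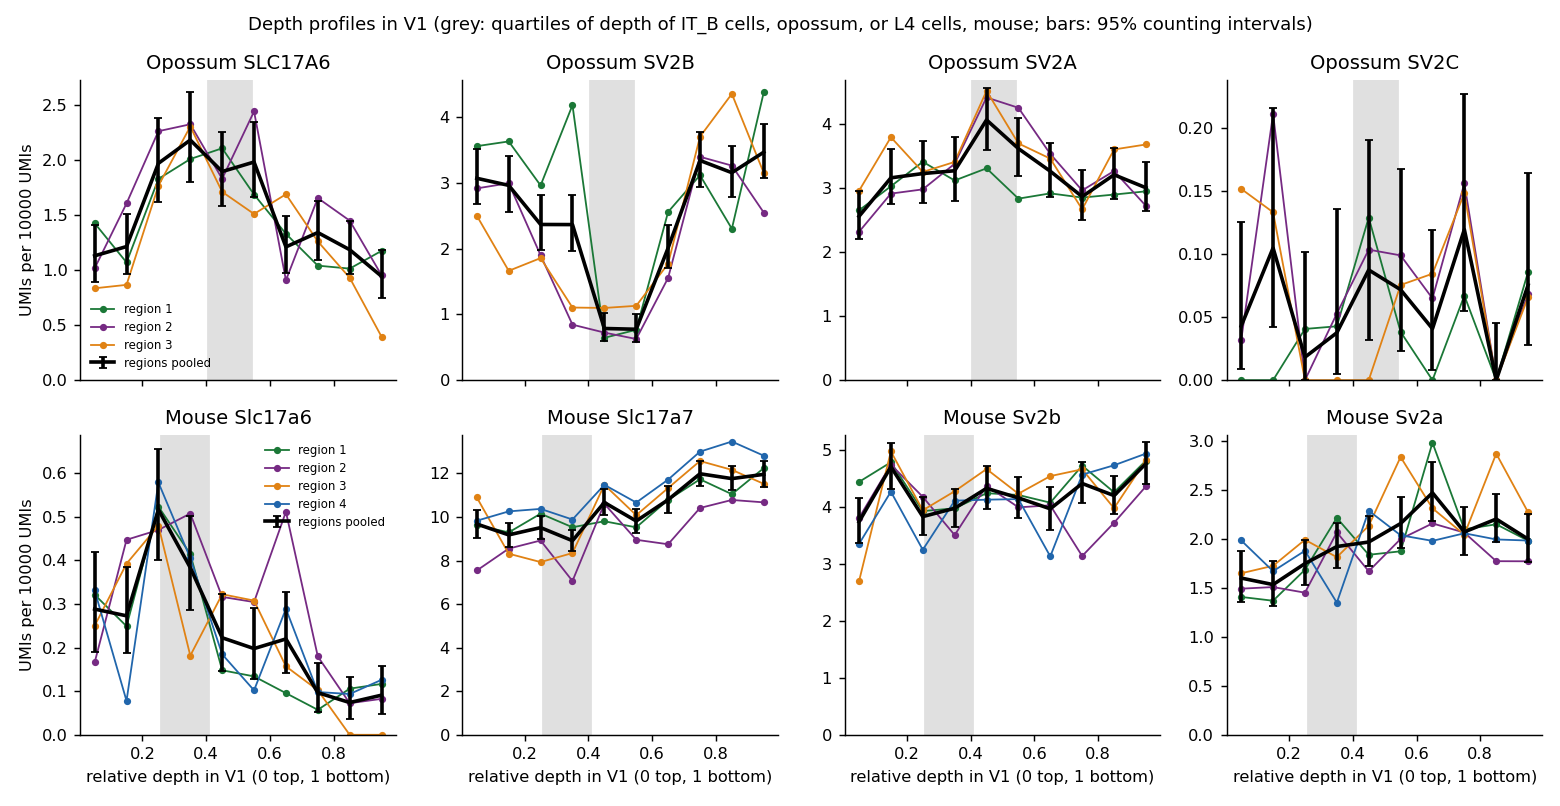
Level of each member (y axis, UMIs per 10000 UMIs) against relative depth in V1 (x axis, 0 at the upper and 1 at the lower edge) for 4 opossum genes (top row) and 4 mouse genes (bottom row). Thin coloured lines are V1 regions, the black line pools them with 95% counting intervals, and grey marks the depth quartiles of IT_B (opossum) or L4 (mouse) cells; opossum SV2B is at 0.786 and 0.774 in the grey zone in which SLC17A6 and SV2A are high, and mouse Slc17a6 is highest in bin 3 while mouse Sv2b stays near 4.

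To place the trough by cell labels, a band was set between the depth quartiles of the cells labelled IT_B, the intratelencephalic subclass that the study aligned with mouse layer 4, and likewise of L4 cells in the mouse. The labels were drawn from these same counts, so the band is not independent of the members or of the layer genes below. This band was chosen after the depth profiles had been seen. In the opossum it ran from 0.405 to 0.543 of the depth and held 793 cells, of which 62 were labelled IT_B. In the mouse it ran from 0.258 to 0.409 and held 1752 cells, of which 985 were labelled L4. RORB, a known layer 4 gene, was 2.96-fold higher in the opossum band than in the rest of V1 and 3.47-fold higher in the mouse band. FOXP2, a gene of layer 6, was at 0.372 and 0.322 of the rest. Cells of the bands were somewhat shallower, with medians of 1136 against 1375 UMIs in the opossum and 1150 against 1353 in the mouse, and the part of this in the results was not tested.

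In the opossum band SV2B stood at 0.727, against 2.74 in the rest of V1, a ratio of 0.265 (95% counting interval 0.206 to 0.337). Taken whole, the tissue above the band had 2.70 and that below it 2.77. In regions 2 and 3, however, bin 4, which lies just above the band, was at 0.844 and 1.10. The trough was therefore not confined to the band in those regions. The ratio was 0.189, 0.287 and 0.381 in regions 1, 2 and 3. It was 0.200 among cells of glutamatergic subclasses, 0.452 among GABAergic and 0.476 among non-neuronal cells, and 0.254 when every cell labelled IT_B was left out. Cells of every class in the band thus had less SV2B than cells of the same class elsewhere in V1, glia included.

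SLC17A6 stood at 2.04 in the band and at 1.37 outside it, with 1.58 above the band and 1.22 below, a ratio to the rest of 1.49 (1.27 to 1.74), with 1.66, 1.38 and 1.46 in the 3 regions. The interval of region 3 reached 0.998. Bins 3 and 4, which lie above the band, were at 1.97 and 2.18, so the rise of SLC17A6 was not confined to the band. SV2A was 1.31 times its level in the rest (1.17 to 1.46), though region 1 gave 1.10 with an interval from 0.887 to 1.36, and SV2C, with 7 UMIs in the band, gave an interval from 0.465 to 2.84. Of the 3 opossum members with at least 200 UMIs in V1, SV2B alone passed a 1.5-fold difference. Among all 6554 genes tested, 5.84% were as far below and 3.42% as far above the rest of V1. Slc32a1, the vesicular transporter of GABA, was 1.79-fold higher in the opossum band (1.54 to 2.07), which held more GABAergic cells for its size, 165 of 793 against 426 of 4013.

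Mouse Slc17a6 was also higher in its band than in the rest of V1, and mouse Sv2b had no trough there. Slc17a6 stood at 0.413 in the L4 band and 0.196 in the rest, a ratio of 2.11 (1.62 to 2.72). The tissue above the band had 0.333 and that below it 0.145, so the band lay nearer to the tissue above it. In regions 2 and 3 the band, at 0.415 and 0.286, was no higher than the tissue above it, at 0.419 and 0.344. The ratios of regions 1 to 4 were 2.71, 1.5, 1.42 and 2.52, and the intervals of regions 2 and 3 included 1. Without the cells labelled L4 it was 2.46 (1.65 to 3.57). Sv2b stood at 3.94 in the band and 4.28 in the rest, a ratio of 0.921 (0.854 to 0.992), Sv2a gave 0.964 (0.864 to 1.07) and Slc17a7 gave 0.875 (0.833 to 0.918). Slc17a6 was the member of the 4 measured that passed 1.5-fold, beside 2.88% of 9092 genes in that direction and 3.63% in the other.

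The mouse transporters ran in opposite directions through the depth of V1. Slc17a6 was highest in bin 3, at 0.516, and stood at 0.0965, 0.0739 and 0.0908 in the bottom 3 bins, so that tissue below mid-depth had 0.380 of the level above it. That ratio was 0.300, 0.516, 0.346 and 0.422 in the 4 regions. Slc17a7 stood between 8.91 and 9.68 in the top 4 bins and at 12.0, 11.8 and 12.0 in the bottom 3. Below mid-depth it was 1.18 times the level above, with 1.15, 1.17, 1.25 and 1.19 in the regions. The mean depth of Slc17a6 was 0.382 ± 0.0412 (SD over 4 regions) and that of Slc17a7 was 0.516 ± 0.00815, against 0.487 for all cells. Sv2a followed Slc17a7, at 1.23, with all 4 regions between 1.11 and 1.33, whereas Sv2b was even, at 1.05. Slc17a6 was 1 of the 4 measured members past 1.5-fold, beside 3.42% of all genes tested that were as far down below mid-depth and 2.44% as far up. In the opossum none of the 3 measured members passed, beside 4.06% of genes with less below mid-depth and 3.65% with more.

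Cell labels came from the authors' matching of these counts to single-nucleus data, so levels by subclass are descriptions. The study used Sv2b as its glutamatergic marker when it sorted opossum single-nucleus clusters into classes. Differences of SV2B between classes are therefore partly built into the labels. Of the opossum members measured, SV2B varied most between glutamatergic subclasses. Among glutamatergic subclasses it was highest in L5PT, at 4.66 (115 cells), and L6CT, at 3.99 (568 cells), both deep projection neurons, followed by IT_C at 3.09, IT_A at 2.80 and L5NP at 2.19, and it was lowest in IT_B, at 0.849 (0.503 to 1.34). The 38 cells of the Vip interneurons lay between L6CT and IT_C, at 3.44 on 17 UMIs (2.01 to 5.52), with 2.21, 5.95 and 0 by region. The level of Micro, 0.836 on 3 UMIs, and that of Endo, 0.883 on 6, were as low as that of IT_B. L6CT stood at 4.26, 3.56 and 4.12 in the regions. L5PT varied more, with 4.07, 6.56 and 0, the last on 22 cells of region 3, where 0 UMIs allow a level of up to 1.11 (3 counts, counting error only). Intervals of IT_A and IT_C overlapped, as did those of L6CT and L5PT, so their order is not settled. By share of cells with any SV2B UMI, L5PT was not above L6CT, at 27.0% against 29.9%. With cells thinned to 300 UMIs the shares were 8.21% and 8.41%.

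Over classes, SV2B stood at 3.10 in opossum glutamatergic subclasses, 1.41 in GABAergic and 1.53 in non-neuronal ones. The glutamatergic level was 2.02 times the non-neuronal, and 12.5% of 5904 genes were as far up and 5.18% as far down. Because the gene helped to set these classes, its split is partly fixed by the labels and is no separate result. SLC17A6, for all its known use by excitatory neurons, had no such split, with 1.45, 1.23 and 1.63. Its highest subclass was OPC, oligodendrocyte precursors, at 2.85, where region 2 had 4.94 and regions 1 and 3 had 1.91 and 1.29. Among glutamatergic subclasses it ran from 1.65 in IT_A to 1.03 in L6CT, and their intervals did not overlap. In regions 1 and 2 IT_A had 1.73 and 1.70 and L6CT had 0.773 and 1.13, but in region 3 both had 1.31. SV2A was highest in Sst interneurons, at 4.30, followed by Endo, the vascular cells, at 3.83 on 26 UMIs and Pvalb interneurons at 3.73, and stood at 2.67 in L6CT. Sst cells of region 1, at 2.36, were below that order.

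**Figure D2:**
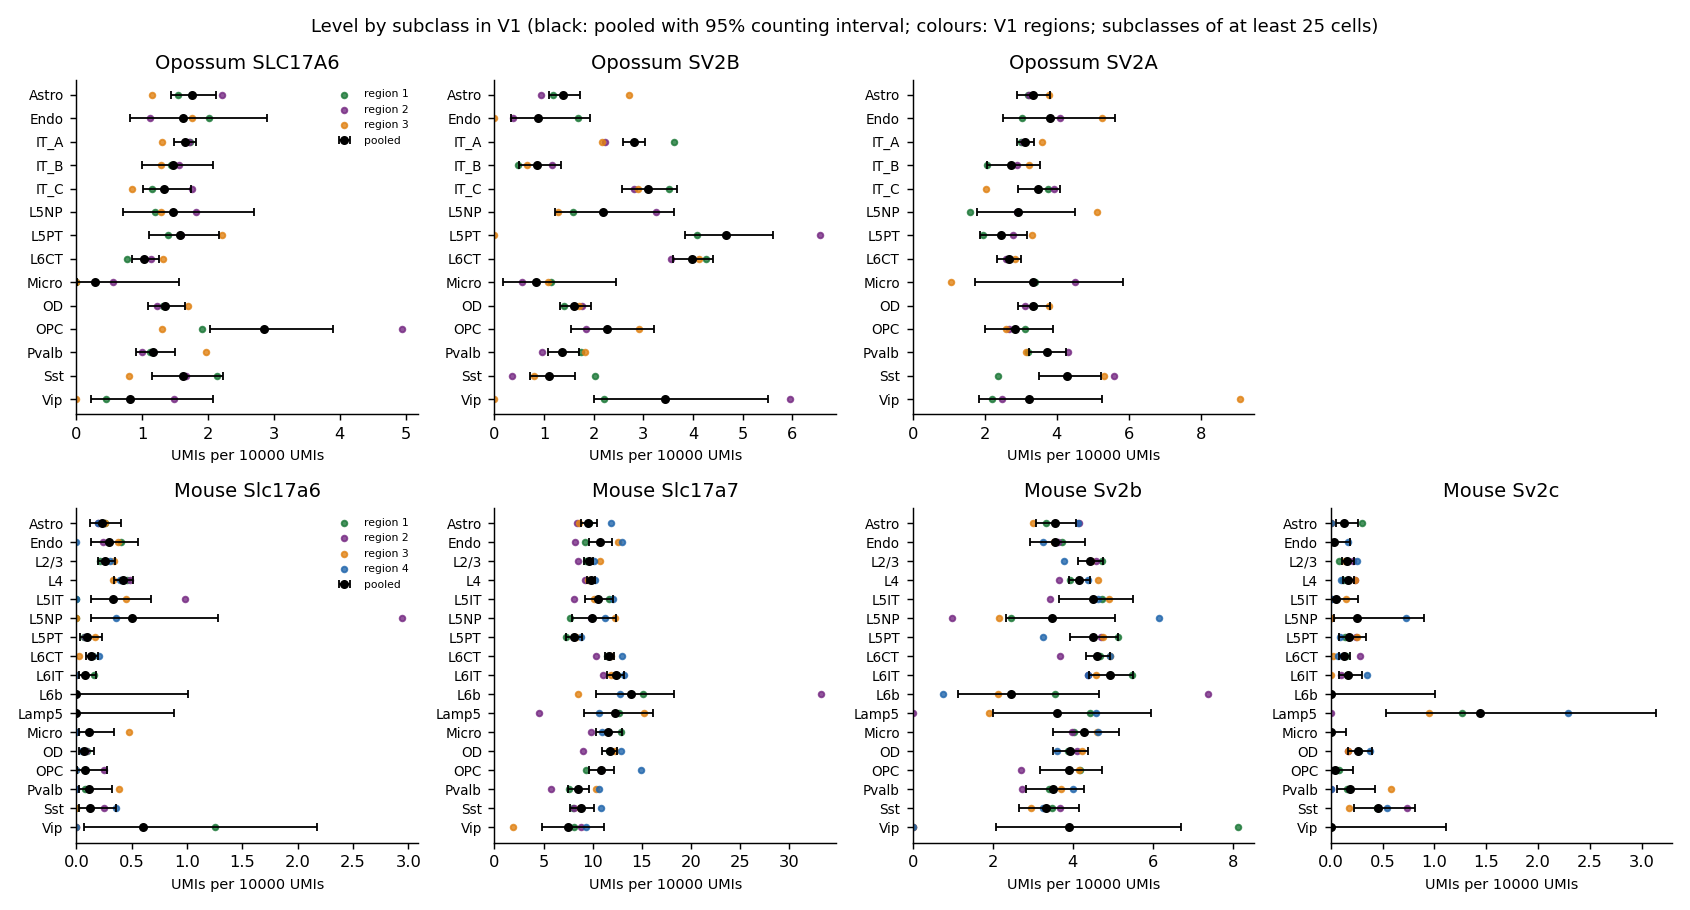
Level (x axis, UMIs per 10000 UMIs) by subclass of V1 cells (y axis) for 3 opossum genes (top row) and 4 mouse genes (bottom row), subclasses of at least 25 cells. Black points pool the regions with 95% counting intervals and coloured points are single V1 regions; opossum SV2B ranges among glutamatergic subclasses from 0.849 in IT_B to 4.66 in L5PT, while mouse Slc17a7 is as high in glia as in glutamatergic neurons.

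In the mouse, Slc17a6 was highest among the subclasses of more than 200 cells in L4, at 0.419 (0.343 to 0.507), and it was 0.462, 0.489, 0.333 and 0.397 there by region. The vascular cells (Endo) followed at 0.294 on 9 UMIs, L2/3 at 0.260, astrocytes at 0.235, L6CT at 0.135, L5PT at 0.1002, L6IT at 0.0762 and OD, the oligodendrocytes, at 0.0723, and the intervals of L4 and L2/3 touched. Of the smaller subclasses, L5IT had 0.328 on 7 UMIs, with 0 in regions 1 and 4, and L5NP and Vip had 0.499 and 0.602, on 4 and 2 UMIs. The glutamatergic level, 0.257, was 1.73 times the non-neuronal, beside 3.24% of 8199 genes as far up and 2.23% as far down. Slc17a6 was thus the 1 mouse member past 1.5-fold between these classes.

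Among the glutamatergic subclasses of more than 200 cells Slc17a7 was highest in those of layer 6, 12.3 in L6IT and 11.7 in L6CT, against 9.58 in L2/3 and 9.79 in L4, and it was lowest in L5PT, at 8.07. The class levels were 10.4 in glutamatergic, 8.84 in GABAergic and 10.9 in non-neuronal subclasses. Oligodendrocytes (OD) had 11.7 and astrocytes 9.56. The best known transporter of cortical excitatory neurons was thus read at about the same level in the glia between them, and the label of a cell said little of its Slc17a7 level. SLC17A6 gave the same reading in the opossum. Whether RNA of neighbouring cells entered these counts was not tested.

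Mouse Sv2b stood at 4.42 in glutamatergic, 3.503 in GABAergic and 3.82 in non-neuronal subclasses. Mouse Sv2c was the member with the highest ratio of GABAergic to glutamatergic cells, 0.367 (0.230 to 0.556, 22 UMIs) against 0.152 (0.126 to 0.182). Its GABAergic levels were 0.320, 0.336, 0.401 and 0.443 in the 4 regions, above the glutamatergic level of each. Within the GABAergic cells Lamp5 had 1.44 on 6 UMIs and Sst 0.453 on 11, but Pvalb had 0.184 on 5 and Vip had 0. Oligodendrocytes had 0.265 (0.166 to 0.402), also on 22 UMIs, and that interval overlapped the GABAergic one. Opossum SV2C had 9 UMIs in GABAergic cells, a level of 0.103 (0.0472 to 0.196), and its interval overlapped that of glutamatergic cells.

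SLC17A6, SV2B and SV2C differed between opossum V1 and the tissue outside it, and SV2A differed less. SLC17A6 was higher outside V1, at 2.58 (2.54 to 2.61), than inside, a ratio of inside to outside of 0.567 (0.532 to 0.604), with 0.554, 0.615 and 0.495 for the 3 regions. SV2C was also higher outside, at 0.259 against 0.0606, a ratio of 0.234 (0.168 to 0.317). SV2B went the other way, with 1.78 outside and a ratio of 1.39 (1.32 to 1.46), and SV2A gave 1.11. So 2 of the 4 members lay below 1/1.5, where 17.3% of 14693 genes did, and none above 1.5, where 4.56% did.

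These ratios depended on what V1 was set against. In tiles of 100 µm outside V1 whose cortical list reached the lower quartile of the V1 tiles, SLC17A6 stood at 1.23, SV2B at 2.99 and SV2C at 0.0643. V1 over these cortex-like tiles gave 1.19 for SLC17A6 (1.10 to 1.29), 0.825 for SV2B (0.779 to 0.872) and 0.942 for SV2C (0.638 to 1.37). SLC17A6 and SV2B thus changed side, while SV2A, at 1.11 against either, did not, and no opossum member passed 1.5-fold, beside 0.731% of 10125 genes above and 1.5% below. These tiles were chosen after seeing the data. A hippocampal list (Prox1, C1ql2, Dsp, Spink8 and Fibcd1, of which 4 were found in the opossum) summed to 0.896 in them, against 0.446 in V1. The tiles therefore cannot be taken as cortex alone.

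The opossum section fell into separate pieces of tissue, and SLC17A6 and SV2B differed between the pieces. The piece that held regions 1 and 2 had SLC17A6 at 1.03 and SV2B at 3.27, and the piece that held region 3 had 1.17 and 2.49. The 3 largest pieces without V1 had 3.45, 3.86 and 2.89 for SLC17A6 and 0.942, 0.720 and 0.766 for SV2B, with the cortical list at 8.46 or less in each. A piece of 2070 cells without V1 had the cortical list at 43.6, and there SLC17A6 stood at 1.26 and SV2B at 3.03, near their levels in the pieces with V1. A smaller piece of 1596 cells had the highest SLC17A6 of all, 7.94 (7.46 to 8.44), and also the highest sum of the thalamus and dorsal midbrain list (Tcf7l2, Zic1, Lef1, Prkcd, Shox2 and Gbx2), 16.0. The list and the gene did not go together in every piece. The next highest sums of the list, 9.04 and 9.22, were in pieces of 1117 and 1096 cells, where SLC17A6 was 1.97 and 2.04, below the 3 large pieces, whose list summed to 3.52, 3.95 and 3.98. SV2A did not separate the pieces with V1, at 2.55 and 3.10, from the 3 largest without, at 2.89, 3.48 and 3.51. It was lowest in the pieces of 1117 and 2070 cells, at 1.61 and 2.15.

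**Figure D3:**
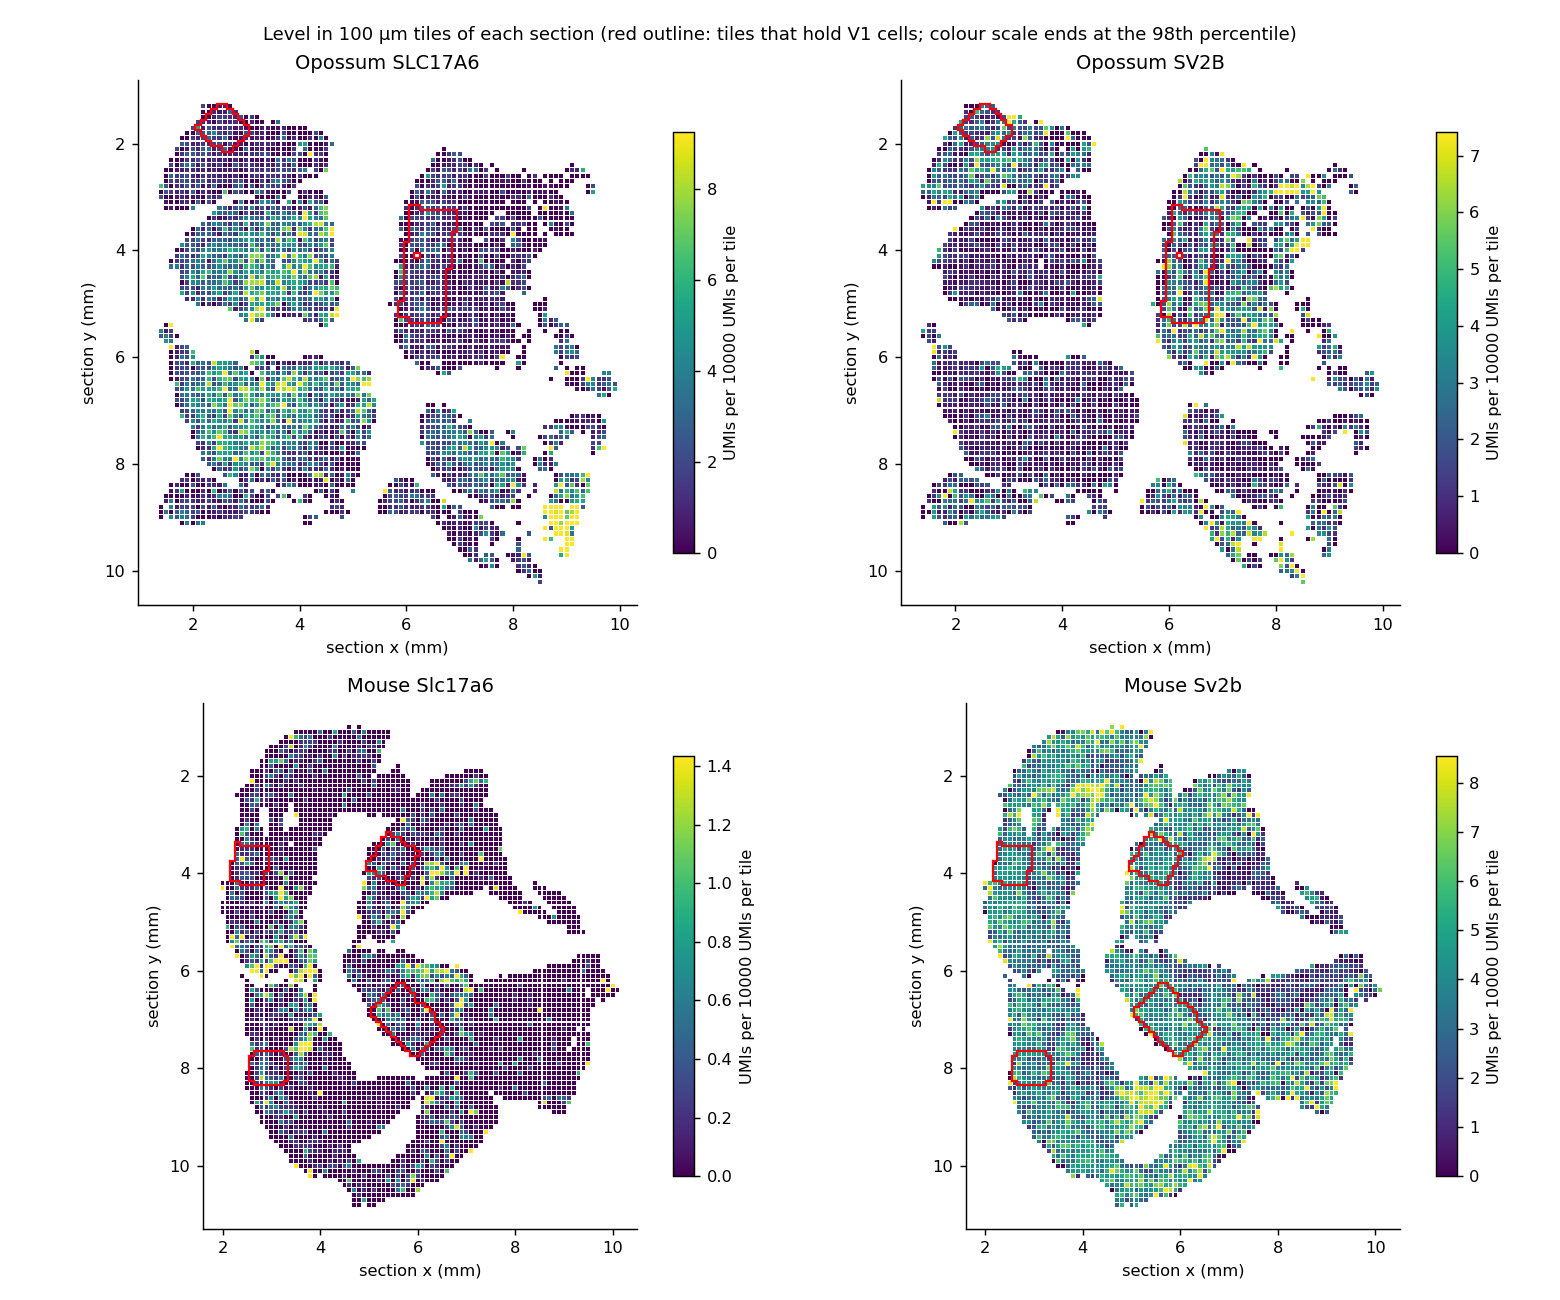
Level of SLC17A6 and SV2B (colour, UMIs per 10000 UMIs in tiles of 100 µm) over the opossum section (top) and of Slc17a6 and Sv2b over the mouse section (bottom), with axes in mm on the chip and red lines around the tiles that hold V1 cells. In the opossum SLC17A6 is high in the 3 largest pieces without V1 and highest, 7.94, in the small piece at lower right, while SV2B is high in the pieces with V1 and in the piece of 2070 cells without it, and falls along a stripe inside the V1 outline; mouse Slc17a6 is high in a few stretches of tissue outside V1.

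Tiles outside V1 were also ranked by marker lists, and the top 5% of each list were pooled. In the 177 opossum tiles of the thalamus and midbrain list SLC17A6 stood at 5.26 (4.995 to 5.54), against 2.58 over all 3543 tiles and 1.33 in the tiles of the cortical list. SV2B stood at 2.87 in tiles of the cortical list and at 2.67 in tiles of the dentate gyrus genes Prox1, C1ql2 and Dsp, against 1.77 over all tiles, and at 0.830 in tiles of the GABAergic list. SV2A and SV2C were highest in GABAergic tiles, at 4.11 and 0.362. Bulk tiles hold several cells, so fewer cells of a type and less RNA per cell cannot be told apart.

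In the mouse section the members differed less between V1 and the tissue outside it, and the cortical list summed to 28.7 outside V1 against 31.7 inside. Inside over outside V1 was 1.21 for Slc17a6 (1.07 to 1.37), 1.05 for Slc17a7, 1.23 for Slc17a8 (0.831 to 1.77), 1.08 for Sv2a, 1.05 for Sv2b and 0.757 for Sv2c (0.652 to 0.874). No mouse member passed 1.5-fold, beside 2.36% of 18496 genes above and 7.93% below. Sv2c was lower in V1 in all 4 regions, with ratios of 0.641, 0.882, 0.841 and 0.784. Against cortex-like tiles the mouse ratios were 1.28 for Slc17a6, 1.00 for Slc17a7, 1.14 for Slc17a8, 1.12 for Sv2a, 0.964 for Sv2b and 0.816 for Sv2c, again with none past 1.5-fold, beside 1.87% of 15806 genes above and 4.36% below. The hippocampal list summed to 1.73 in these mouse tiles, against 0.458 in V1. These ratios are thus not V1 against other cortex alone, and the part of hippocampal tissue in them was not tested. The thalamus and midbrain list summed to 2.16 in its top mouse tiles, against 15.6 in the opossum, and Slc17a6 was 0.197 in those tiles, as in all mouse tiles (0.192). The list was also lower in mouse than in opossum V1, at 0.196 against 1.01, so its sums are not a common scale for the species.

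The mouse hippocampus set the SV2 genes apart. In the 200 tiles highest for Prox1, C1ql2 and Dsp, markers of dentate granule cells, Sv2b stood at 1.14 (1.07 to 1.22), against 4.03 over all tiles, and Sv2c stood at 0.528 (0.478 to 0.581) against 0.210. In the 200 tiles highest for Spink8 and Fibcd1, genes of the CA1 field, the order turned, with Sv2b at 4.93 and Sv2c at 0.0798. Slc17a6 was low in both, 0.0376 and 0.0519. Slc17a7 stood at 8.24 in the first and 10.8 in the second, and Sv2a at 1.38 and 1.64. The split of the hippocampal list into these 2 sets was made after seeing the data. The opossum tiles of the same dentate genes did not show the drop, as given above for SV2B, and SV2C there was 0.231, against 0.259 over all tiles. Outside opossum V1, however, C1ql2 had 4366 UMIs, against 995 of Prox1 and 178 of Dsp. C1ql2 was also higher in cortex-like tiles, at 0.729, than over all tissue outside V1, at 0.563. Whether the opossum tiles held dentate gyrus was not tested, so the 2 sets of tiles may not be the same tissue.

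**Figure D4:**
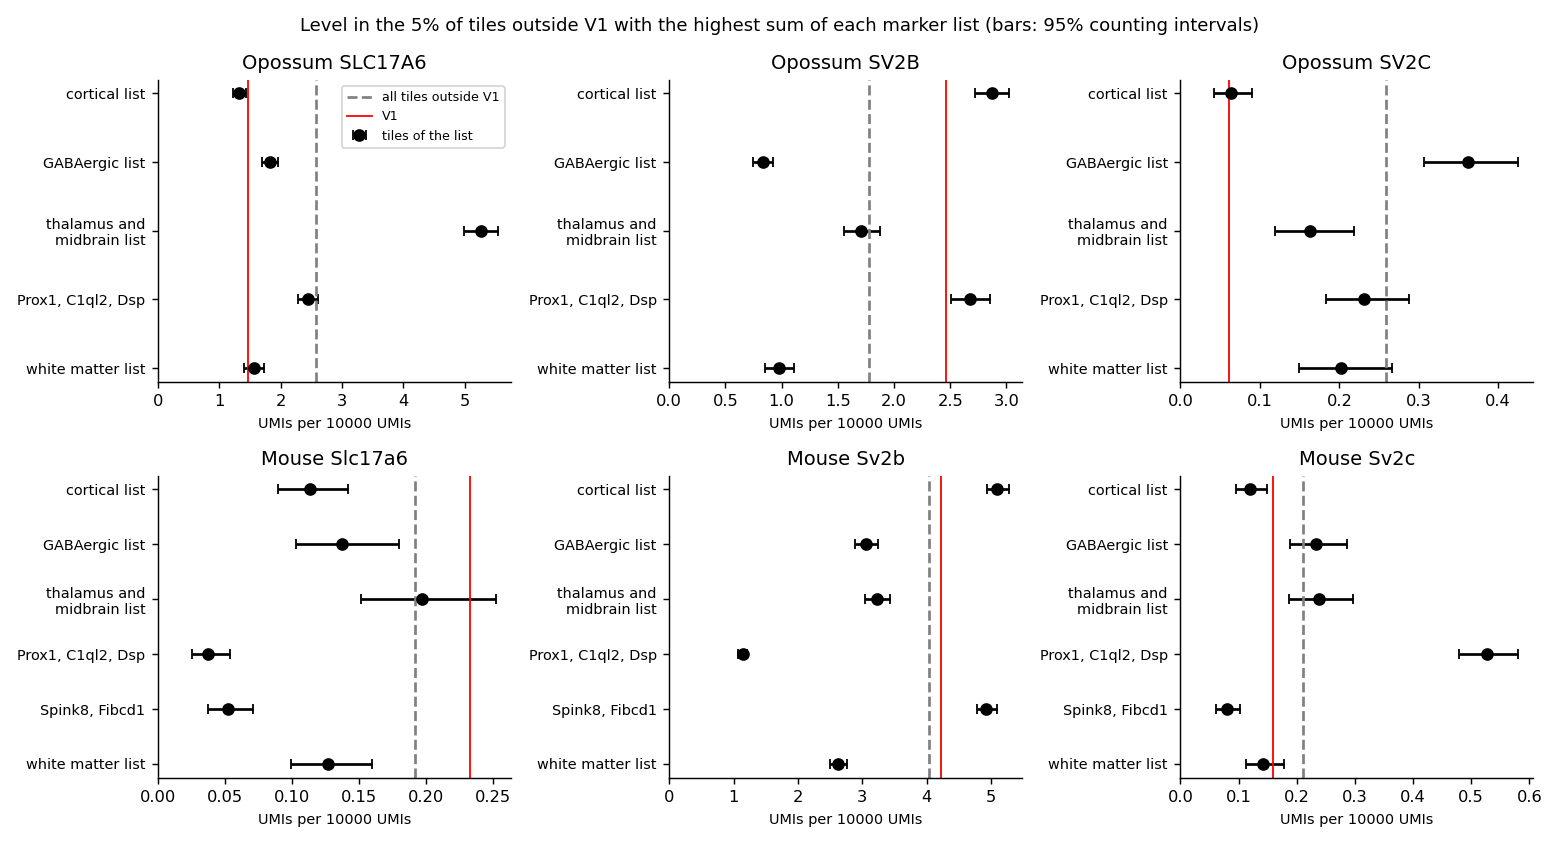
Level (x axis, UMIs per 10000 UMIs) in the 5% of tiles outside V1 with the highest sum of each marker list (y axis) for Slc17a6, Sv2b and Sv2c in opossum (top) and mouse (bottom). Points carry 95% counting intervals, the dashed line is the level over all tiles outside V1 and the red line the level in V1; opossum SLC17A6 is highest, 5.26, in tiles of the thalamus and midbrain list, and mouse Sv2b is lowest, 1.14, in tiles of Prox1, C1ql2 and Dsp, where Sv2c is 0.528.

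The other genes that supply, clear or load glutamate or other transmitters, and the vesicle proteins beside them, were read from a list of 23, of which 20 were found in the opossum and 23 in the mouse. Inside over outside V1, Syt1 (1.61) and Slc6a17 (1.67), a synaptotagmin and a vesicular amino acid transporter, passed 1.5-fold upward in the opossum. Slc18a2 (0.470, 21 UMIs in V1), the vesicular monoamine transporter, and Slc17a9 (0.627, 12 UMIs in V1), the vesicular nucleotide transporter, passed downward. In the mouse none of the 20 genes with at least 200 UMIs in and outside V1 together passed in either direction. Neither species had a gene of the list past 1.5-fold between tissue below and above mid-depth in V1, among the 15 measured in the opossum and the 20 in the mouse.

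Between classes, the astrocyte glutamate transporter Slc1a3 was lower by at least 1.5-fold in glutamatergic than in non-neuronal subclasses in both species, joined in the opossum by Slc1a2 and by Glul, the glutamine synthetase of astrocytes. Slc32a1 was higher in GABAergic than in glutamatergic subclasses in both, and opossum Slc1a1 was lower. In the opossum SV2B, which had helped to set the classes, was lower in GABAergic cells by the same measure, at 0.455. There 8.3% of 5491 genes were as low. In the mouse Slc17a6 was, at 0.520, where 7.2% of 7511 were. No member with at least 200 UMIs in V1 was as far up in GABAergic cells, where 4.24% of opossum and 4.41% of mouse genes were. Mouse Sv2c, 2.42 times higher there, had 199 UMIs and so was not among them.

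The genes most like a member over the V1 subclasses were sought by Pearson's r of log2(level + 0.1), among genes with at least 200 UMIs in V1 and over 14 opossum or 17 mouse subclasses that share 1 section. For opossum SV2B these were LRRTM3 (0.84), ENSMODG00000015042 (0.82) and GALNT9 (0.81). They were Syt14 (0.89), Zfp512 (0.88) and Efr3b (0.86) for mouse Slc17a6, and Ncald (0.89), Grhl1 (0.83) and Cep120 (0.83) for mouse Slc17a7. For opossum SLC17A6 they were TMEM38A (0.91), GRB2 (0.90) and SELENOW (0.90), and for opossum SV2A they were HOMER3 (0.78), IRS2 (0.75) and SLC9A5 (0.73). The lowest subclass for SLC17A6 was Micro, at 0.279 on 1 UMI, and the weight of that value in its r was not tested. Mouse Sv2a came with Mphosph10 (0.86), Gtf2f2 (0.86) and Timm8b (0.85), and mouse Sv2b with Mtmr7 (0.86), 9530059O14Rik (0.85) and Mest (0.83). By Spearman's rho 2 of the 3 genes of opossum SV2B and of mouse Slc17a6, 1 of 3 for mouse Slc17a7 and mouse Sv2a, and none for the other 3 members stayed among the 3 nearest, so most of these lists depended on the measure.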

How the data were processed

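Per the study's methods, the authors processed the reads with the Stereo-seq Analysis Workflow, aligned the opossum to a genome with extended 3′ ends and the mouse to GRCm39, and deposited raw UMI counts per segmented cell with positions, V1 regions and nearest-neighbour labels, which exist inside V1. Here, V1 cells that passed the authors' filter were used, and the same minimum (50 genes and 100 UMIs) was set for cells outside V1. Counts were summed over cells and scaled to 10000 UMIs (Python 3.11.15, scipy 1.17.1). Intervals are exact Poisson or, for ratios, exact conditional binomial at 95% and cover counting error only. No test was run, with 1 animal a species. Called means a ratio of 1.5 or its inverse, among genes with at least 200 UMIs. Tiles were 100 µm with at least 2000 UMIs. Depth ran across the smallest rectangle around a region. Named genes were the 6 members, a list of 23 genes and the 3 nearest genes by subclass pattern. The members and lists were chosen with earlier results of these data known. One cortical marker is not reported here and was left out of its list. The calculations were tested on simulated data. Alternatives were other cell filters, equal weights, regions left out, other bins, tiles and label subsets.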

Additional observations from a re-analysis of the deposited data

Results flagged for a closer look

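The ratio of the Slc17a6 level inside V1 to that outside V1 was on opposite sides of 1 in the 2 sections. It was 0.567 in the opossum, where all 3 V1 regions were below 1, and 1.21 in the mouse, where all 4 regions were above 1. This difference between species was not tested, since each is 1 animal. The tissue outside V1 differed too, with a thalamus and midbrain list sum of 3.32 for the opossum against 0.267 for the mouse. Inside V1 the same list summed to 1.01 and 0.196. The part of this in the difference was not tested. Against cortex-like tiles, which carried more of the hippocampal list than V1 in both sections, the opossum ratio was 1.19 and the mouse ratio 1.28.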

How the results depend on the processing

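Of 355 values set beside their alternatives for the comparisons of the report, 328 moved by less than the spread between V1 regions. All 86 values for the IT_B and L4 bands were among them, SV2B lying between 0.234 and 0.337, SLC17A6 between 1.40 and 1.57 and so on both sides of 1.5, and mouse Slc17a6 between 1.80 and 2.46.

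What V1 was set against mattered most. Opossum SLC17A6 turned from 0.567 to 1.19 against cortex-like tiles and to 1.51 against the rest of the tissue pieces that hold V1. Against these 2 references opossum SV2B moved from 1.39 to 0.825 and 0.776, and SV2C from 0.234 to 0.942 and 0.666, while SV2A gave 1.24 against the pieces. Mouse Sv2b moved from 1.05 to 0.964 against cortex-like tiles and to 1.10 with equal weight for each cell. Without region 2 opossum SV2B inside over outside V1 was 1.51. The pieces were not separable in the mouse section.

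Mean depths followed the weighting. With UMIs pooled over cells they were 0.499 for opossum SLC17A6, 0.527 for SV2A, and in the mouse 0.548 for Slc17a7, 0.547 for Sv2a and 0.531 for Sv2b. In the glutamatergic class alone they were 0.455 for SLC17A6, and in the mouse 0.487 for Slc17a7, 0.480 for Sv2a and 0.476 for Sv2b. Mouse Slc17a7 gave 0.527 with unscaled depth and the same from 5, 10 or 20 bins. By Spearman's rho none of the 3 nearest genes stayed for opossum SLC17A6 and SV2A and mouse Sv2b (0 of 3 each), and 1 stayed for mouse Slc17a7 and Sv2a. The causes were not tested.

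The planned restriction to glutamatergic cells on both sides of the V1 border was not run, since class labels exist in V1 only. No paired analysis was possible because each species is 1 sample. Counts limit SV2C in the opossum and Slc17a8 in the mouse, with 42 and 33 UMIs in V1.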

Other observations

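Over tiles of 200 µm, 987 of them opossum and 1105 mouse, the genes whose level followed a member most closely were set out by Pearson's r across tiles of 1 section, a description with no test, since tiles share a library and lie next to each other. These tiles were read after the first results had been seen. Opossum SLC17A6 ran with LYNX1 (0.62) and against TCF4 (-0.52) and NRGN (-0.41). Opossum SV2B ran with DLGAP1 (0.59), SYT1 (0.57) and ZBTB18 (0.57), the last a transcriptional repressor that acts in cortical neuron development, and against SPARC (-0.57) and NDRG2 (-0.57), both known from astrocytes. Opossum SV2C ran with LYNX1 (0.44), SLC6A11 (0.39) and SYT2 (0.39) and against NRGN (-0.44). LYNX1, SLC6A11 and NRGN were also among the 6 genes nearest to or most opposed to SLC17A6, and SYT2 was not.

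Mouse Slc17a6 followed Vsnl1 (0.43), Coro6 (0.43), Hlf (0.40), Nrep (0.39) and Tshz2 (0.39). Mouse Sv2b followed App (0.52) and Snap25 (0.50), and ran against C1ql2 (-0.51) and Prox1 (-0.50). Mouse Sv2c had C1ql2 (0.26) and Prox1 (0.22) among its 6 nearest genes, and the gene it opposed most was Sv2b (-0.26). Mouse Slc17a7 followed Rtn1 (0.43) and Stmn2 (0.43).

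Opossum Slc18a3, the vesicular acetylcholine transporter, had 97 UMIs in V1 outside the IT_B band and 3 within it, a ratio of 0.192 (95% counting interval 0.0389 to 0.578). Its level was 0.0312 in the band, 0.0322 above it and 0.255 below it. The band was thus like the tissue above it, and the gene had no trough there. Slc18a3 was below the count set for calls and was named after its values had been seen.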
